A study of Mus musculus with 8 samples.

Results

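The collagen genes of the mouse retina were taken as every gene in the count table whose symbol consists of Col, a chain type number, the letter a and a chain number. The rule used names alone and gave 44 of the 26824 genes. RNA from whole dissected retina was sequenced in 3 libraries labelled wild type (WT 1 to WT 3) and 5 libraries labelled as knockouts of Kv8.2 (KO 2 to KO 6). Kv8.2 is the potassium channel subunit of photoreceptors that Kcnv2 encodes. All mice were 1 month old and untreated, and 2 retinas were pooled for each library. The strain and the knockout allele are not given in the sources used here. The submitters tested 3 WT against 3 KO samples after leaving out 2 KO samples that they do not name, so all 8 libraries were used here. No label says which libraries came from separate litters or runs, so p-values measure the spread between these libraries.

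Collagens are extracellular matrix proteins built from 3 chains wound into a triple helix. Fibrillar collagens form banded fibrils, type IV chains assemble into the sheet-like networks of basement membranes, and other classes decorate fibrils, form beaded filaments or anchor cells. In the eye, type II, V/XI and IX collagens are known as the fibril components of the vitreous gel. Type IV collagen is known from the inner limiting membrane, the retinal vessels, Bruch's membrane and the lens capsule.

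Kcnv2 was present in every library. Its level, in counts per 1000000 with edgeR's TMM scaling (CPM), was 519 to 551 in WT and 398 to 585 in the libraries labelled KO. The log2 fold change was -0.24 (SE 0.136, adjusted p = 0.275, edgeR quasi-likelihood test with Benjamini-Hochberg adjustment). Whether counts over the whole gene can show the deletion is unknown without the allele, so the genotype is used as labelled throughout. A list of 8 rod genes summed to 37197 to 54879 CPM over the 8 libraries, so the rod photoreceptors of the labelled tissue were in each of them. Depth was 17759146 to 25188870 counts per library. KO 3 stood apart through lens transcripts: a list of 21 lens genes summed to 52115 CPM there, against 33.0 to 1787 in WT and 4.42 to 237 in the other KO libraries. KO 4 to KO 6 stood apart from the other 5 libraries through a lower mitochondrial share of counts, 3.03% to 3.70% against 5.23% to 7.92%. No WT library shared this, so for KO 4 to KO 6 the set of libraries and the genotype cannot be told apart.

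Genes of type IV collagen lie in head-to-head pairs, and their start regions are shown because the chains of the first pair, Col4a3 and Col4a4, moved together in these data. Col4a5 and Col4a6 are shown beside it and did not move together in KO 2. Col4a1 and Col4a2, whose start region is not shown, had log2 fold changes of 0.69 and 0.34 in KO 4 to KO 6 against WT. A link between start regions and transcript levels was not tested. In GENCODE M21 (build GRCm38) the start sites of Col4a3 and Col4a4, on opposite strands of chromosome 1, are 72 bases apart. Those of Col4a5 and Col4a6 on the X chromosome are 1309 bases apart, and those of Col4a1 and Col4a2 on chromosome 8 are 21 bases apart, inside a short overlap of both genes. The 71 bases between the starts of Col4a4 and Col4a3 (chr1:82586850-82586920, minus strand) and the 71 bases before the starts of Col4a5 (chrX:141475314-141475384, plus strand) and Col4a6 (chrX:141474077-141474147, minus strand) were read from RefSeq windows of GRCm38.p6. Capitals mark a GC box, here on the opposite strand.
Col4a4 to Col4a3: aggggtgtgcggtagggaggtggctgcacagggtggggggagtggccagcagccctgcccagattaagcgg
Col4a5: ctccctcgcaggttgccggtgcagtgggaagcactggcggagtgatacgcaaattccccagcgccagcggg
Col4a6: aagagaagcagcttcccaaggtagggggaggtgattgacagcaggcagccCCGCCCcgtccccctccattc

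The stretch shared by Col4a3 and Col4a4 had a GC content of 69.0%, that of Col4a5 66.2% and that of Col4a6 63.4%, against a median of 54.9% over 32851 windows of the same length. On both strands, the GC box GGGCGG was found in the Col4a6 window only among these 3, and in 20.7% of all windows. The letters CCAAT and TATAAA were in none of the 3, and in 13.3% and 4.41% of all windows. Among the 38 windows that matched 35 of the 44 collagen genes, 15 held the GC box, 3 held CCAAT and 1 held TATAAA.

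In WT retina the collagen transcripts were led by a vitreous fibril chain, a cell surface collagen and the endostatin precursor. Levels between genes are compared as CPM per kilobase of transcript. Col9a1 was highest at 22.5 ± 1.73 CPM per kilobase (SD, n = 3), followed by Col18a1 at 17.4 ± 3.02 and Col23a1 at 16.2 ± 1.34. Col18a1 and Col23a1 did not differ beyond their spread. Next came Col2a1 at 9.36 ± 1.84, Col6a1 at 8.42 ± 1.27, Col9a3 at 6.24 ± 0.862 and Col9a2 at 5.65 ± 0.902, where each neighbouring pair lay within its spread apart from Col6a1 and Col9a3, whose means were further apart than either SD. Col20a1, Col4a1 and Col4a2 followed at 4.23, 4.23 and 4.08 CPM per kilobase. Of the main fibril chains of skin and bone, Col1a1 was at 0.134 ± 0.0387 and Col3a1 at 0.341 ± 0.132 CPM per kilobase, while Col1a2 was higher, at 2.15, and ranked 13 of the 44 genes. The lowest were Col6a5 and Col10a1 at 0.0380 and 0.0381. Summed over the 44 genes, the level was 587 to 735 CPM in WT, 1813 in KO 3 and 510 to 667 in the other KO libraries. Without the type IV chains it was 496 to 631 CPM in WT and 414 to 576 in KO, so the excess of KO 3 lay in type IV.

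**Figure D1:**
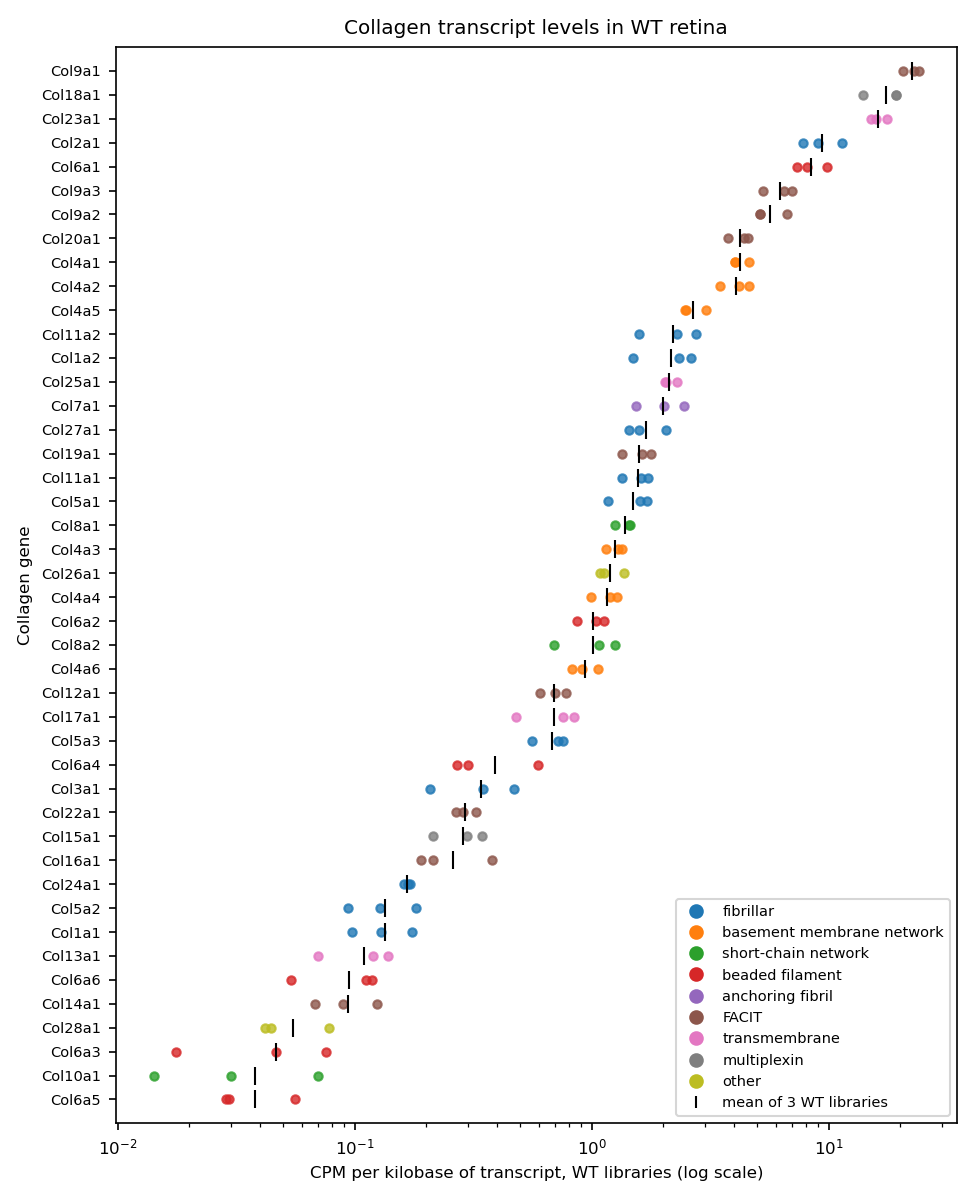
Level of each collagen gene in WT retina, in CPM per kilobase of transcript on a log axis, with 1 point per WT library, a bar at the mean and colours for the structural class. Col9a1, Col18a1 and Col23a1 are the highest, and Col6a5 and Col10a1 are at the foot of the plot.

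Over all 8 libraries edgeR called no collagen gene, while DESeq2 and limma voom called some. After edgeR's filter on low counts 41 were tested, and Col6a5, Col10a1 and Col28a1 were not. At an adjusted p under 0.05, 0 of 41 were called with edgeR's quasi-likelihood test, where 7.58% of all 20167 tested genes were called. At an unadjusted p under 0.05 there were 10 of 41, against 5506 of all 20167 tested genes. DESeq2 called 5 (Col5a3, Col11a1, Col17a1, Col20a1 and Col27a1; 15.5% of all genes), and limma voom with library quality weights called 14, where it called 40.9% of all genes. Robust estimation called 1 (8.55% of all genes) and a correction for transcript length 2 (7.68%). The median log2 fold change of the collagen genes was -0.02, against 0.00 over all genes. For 9 of the 41 genes the KO libraries did not overlap with the WT libraries, 2 above (Col4a1 and Col17a1) and 7 below (Col5a3, Col9a1, Col11a1, Col20a1, Col24a1, Col26a1 and Col27a1). Over all tested genes the share was 20.9%, with 10.8% above and 10.1% below. Without KO 3 the number was 14, 3 above and 11 below, against 32.0% of all genes (17.3% above, 14.7% below). For KO 4 to KO 6 it was 21, 5 above and 16 below, against 52.4% (25.9% above, 26.5% below).

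The count depended on KO 3 and on which KO libraries were compared. Without KO 3, 7 of 40 tested collagen genes (17.5%) were called, against 20.0% of all genes (12.2% higher, 7.85% lower): Col4a1 was higher and Col4a3, Col4a4, Col4a5, Col9a1, Col11a1 and Col27a1 were lower in the libraries labelled KO. With a correction for GC content as well, 12 were called, where 14.8% of all genes were. Without KO 2, 2 were called (Col9a1 and Col11a1, both lower), where 13.9% of all genes were. In KO 2 and KO 3 against WT, 0 of 40 were called by edgeR, with 0.891% of all genes called and no other tool run. There 16 of the 40 had an unadjusted p under 0.05, against 3831 of all 20201 tested genes. In KO 4 to KO 6 against WT, 17 of 40 were called (42.5%), 5 higher and 12 lower, against 42.8% of all genes (22.3% higher, 20.5% lower). With the GC correction 21 of these 40 were called, 2 higher and 19 lower, against 31.8% of all genes (16.3% higher, 15.4% lower). These comparisons share the 3 WT libraries. The genes followed in detail below are the 5 highest by mean CPM per kilobase over all 8 libraries (Col4a1, Col23a1, Col9a1, Col18a1 and Col2a1), and others that were chosen after their values were seen. Col4a1 ranked 1 there with KO 3 in the mean, and 9 in WT.

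**Figure D2:**
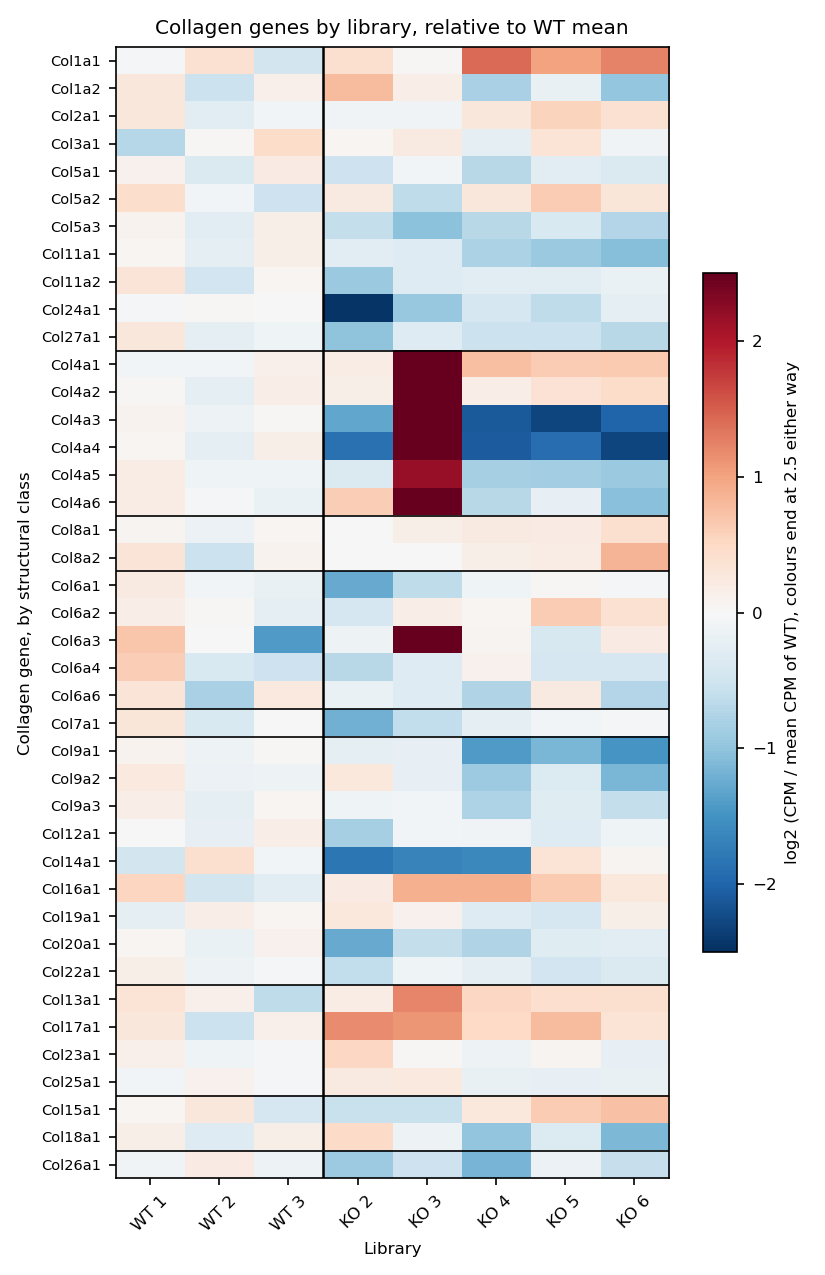
Log2 of the CPM of each tested collagen gene over its WT mean, in each of the 8 libraries, with genes grouped by structural class and colours ending at 2.5 either way. The 6 type IV chains and Col6a3 are high in KO 3, while Col4a3 and Col4a4 are below WT in KO 2, KO 4, KO 5 and KO 6.

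The fibrillar class held 11 genes, all tested. Col2a1 (ENSMUSG00000022483, chr15:97975602-98004695, minus strand), the chain of the type II collagen of vitreous fibrils and cartilage, was at 58.0, 39.5 and 45.8 CPM in WT. It was at 44.8 CPM in both KO 2 and KO 3, and at 57.9, 70.6 and 62.2 CPM in KO 4, KO 5 and KO 6. KO 5 and KO 6 were above every WT library and the other KO libraries lay within the WT range. The log2 fold change over all libraries was 0.23 (SE 0.172, adjusted p = 0.412). Against WT, KO 4 to KO 6 gave 0.42 (SE 0.120, adjusted p = 0.0124), and 0.03 (adjusted p = 0.880) after a correction for GC content, so this call depended on the scaling.

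Col11a1, a type XI chain that nucleates thin fibrils, was at 12.4, 10.3 and 13.3 CPM in WT and at 9.90, 9.56, 6.89, 6.29 and 5.74 CPM in KO 2 to KO 6. Every KO library was below every WT library, and KO 2 and KO 3 were nearest to WT. Without KO 3 the log2 fold change was -0.72 (SE 0.192, adjusted p = 0.0271), and in KO 4 to KO 6 it was -0.92 (SE 0.140, adjusted p = 0.000218). Col27a1, a fibrillar chain of cartilage, was at 15.6, 10.9 and 12.0 CPM in WT. Its KO values were 6.42, 10.2, 8.86, 8.79 and 7.97 CPM, with KO 2 lowest and no overlap between the groups. Without KO 3 its log2 fold change was -0.67 (SE 0.168, adjusted p = 0.0215). Col5a3, a type V chain that regulates fibril diameter, was also below WT in every KO library, at 3.43 to 4.62 CPM in WT and 2.04 to 3.17 in KO. It was called with the GC correction over all libraries, at a log2 fold change of -0.93, together with Col20a1 (-0.81) and Col27a1 (-0.83), 3 of 41, all lower, where 7.46% of all genes were called and 2.95% were lower.

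The chains of type I collagen did not move together. Col1a1 was at 0.768, 1.03 and 0.577 CPM in WT and, from KO 2 to KO 6 in order, at 1.04, 0.808, 2.12, 1.58 and 1.87 CPM. KO 4 to KO 6 were above every other library, with a log2 fold change of 1.23 against WT (SE 0.320, adjusted p = 0.00768). The gene had 13 to 43 counts per library, above the floor of 3 counts (0.130 to 0.164 CPM) but with a wide counting error. After the GC correction the value was 0.88 (SE 0.328, adjusted p = 0.0615) and not called. Col1a2, its partner chain, was at 7.95 to 14.0 CPM in WT, 19.97 in KO 2, 12.9 in KO 3 and 5.92 to 10.2 in KO 4 to KO 6, where its range overlapped with WT (log2 fold change -0.59, adjusted p = 0.0511). With the GC correction it was called lower there, at -0.88 (adjusted p = 0.0106).

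All 6 type IV chains were tested. Col4a1 and Col4a2 form the chain combination of nearly all basement membranes. Col4a1 (ENSMUSG00000031502, chr8:11198423-11312826, minus strand) was at 26.6, 26.7 and 30.6 CPM in WT, 31.6 in KO 2, 640.3 in KO 3, and 47.0, 43.5 and 44.0 in KO 4 to KO 6. All 5 KO libraries were above WT, KO 2 by little and KO 3 by 22.9 times the WT mean. Over all libraries the log2 fold change was 2.53 (SE 1.05, adjusted p = 0.150). Without KO 3 Col4a1 rose by 0.58 on the log2 scale (SE 0.138, adjusted p = 0.0179), but with the GC correction added the value was 0.29 and not called. The rise in KO 4 to KO 6 was 0.69 (SE 0.0771, adjusted p = 2.32e-05), and 0.35 after the GC correction (adjusted p = 0.00633). Col4a2 was at 26.9, 22.3 and 29.7 CPM in WT, 29.0 in KO 2, 327.6 in KO 3, and 29.7, 33.7 and 36.0 in KO 4 to KO 6. KO 5 and KO 6 were above WT and KO 4 was within its range. Its rise of 0.34 in KO 4 to KO 6 (SE 0.106, adjusted p = 0.0192) was lost in 3 of 6 fits without 1 library, and the value was -0.04 (adjusted p = 0.768) with the GC correction, so both call and direction depended on the scaling.

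Col4a3 and Col4a4 make, with Col4a5, the chain combination of the basement membranes of the kidney glomerulus, the cochlea and parts of the eye. In GENCODE M21 Col4a3 (ENSMUSG00000079465) lies at chr1:82586921-82722059 on the plus strand and Col4a4 (ENSMUSG00000067158) at chr1:82448423-82586849 on the minus strand. Of the exon bases of Col4a3, 5.65% are antisense to C430014B12Rik. Col4a3 was at 11.5, 9.78 and 11.0 CPM in WT, 4.34 in KO 2, 93.6 in KO 3, and 2.51, 2.20 and 2.69 in KO 4 to KO 6. Col4a4 was at 12.1, 10.02 and 13.0 CPM in WT, 3.21 in KO 2, 72.0 in KO 3, and 2.76, 3.12 and 2.37 in KO 4 to KO 6. Both chains were thus lower than every WT library in 4 of 5 KO libraries, and far higher than WT in the fifth. Over all libraries the log2 fold changes were 0.97 (SE 1.2, adjusted p = 0.638) for Col4a3 and 0.51 (SE 1.1, adjusted p = 0.801) for Col4a4.

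Without KO 3 both fell. Col4a3 went from 10.8 ± 0.869 CPM (SD, n = 3) in WT to 2.93 ± 0.959 CPM (n = 4), 3.66-fold lower, with a log2 fold change of -1.86 (SE 0.219, adjusted p = 0.00107). Col4a4 went from 11.7 ± 1.51 to 2.86 ± 0.384 CPM, 4.08-fold lower, with a log2 fold change of -2.02 (SE 0.161, adjusted p = 0.000238). They had the largest changes of the 7 collagen genes called in that comparison. In bulk retina, fewer cells that express a gene and less of its RNA in each cell cannot be told apart.

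The fall was seen in KO 2 and in KO 4 to KO 6, and not in KO 3. The log2 fold change in KO 4 to KO 6 was -2.11 for Col4a3 (SE 0.153, adjusted p = 1.31e-06) and -2.08 for Col4a4 (SE 0.163, adjusted p = 2.39e-06). Both calls held in all 6 fits without 1 of those libraries, at -2.18 to -2.04 and -2.19 to -1.99, and after the GC correction, at -2.18 and -2.19. KO 2 alone, taken to vary like the WT libraries because it is 1 library, had log2 fold changes of -1.30 for Col4a3 (SE 0.191, adjusted p = 0.00304) and -1.85 for Col4a4 (SE 0.220, adjusted p = 0.00134). In KO 2, 11 of 41 collagen genes were called, 2 higher and 9 lower, where 16.8% of all genes were (10.3% higher, 6.47% lower).

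**Figure D3:**
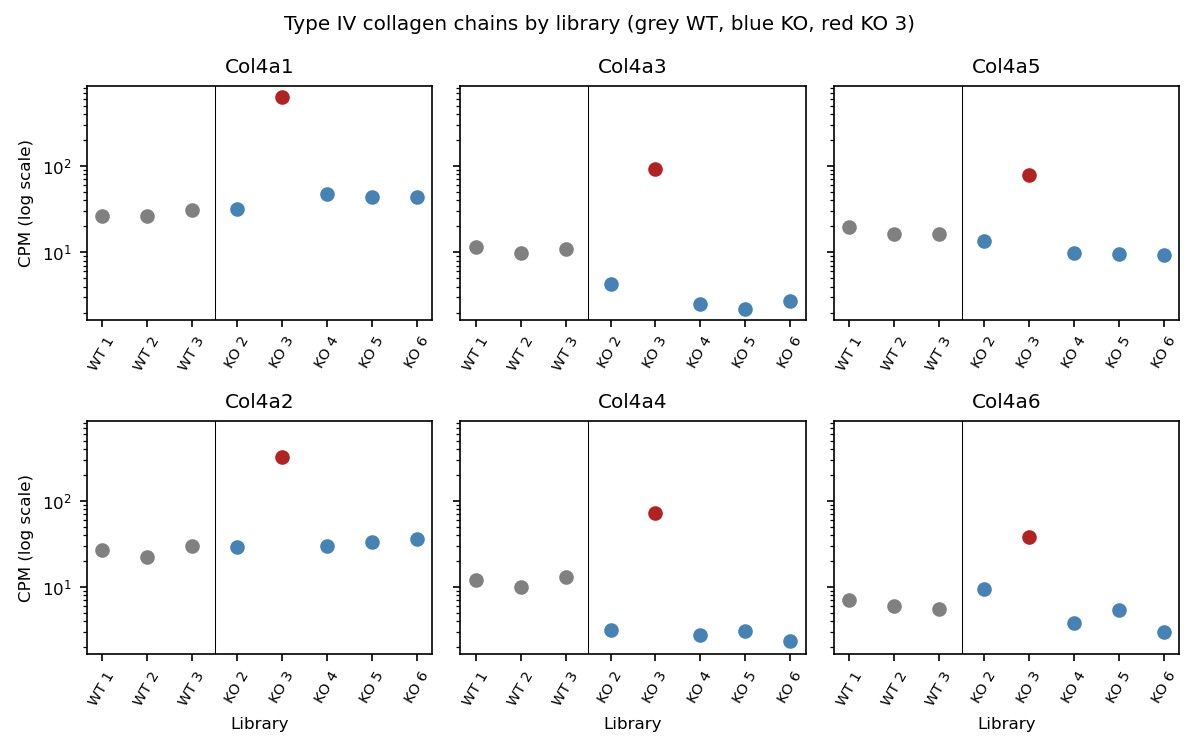
Level of the 6 type IV chains in each library, in CPM on a log axis, with WT in grey, KO in blue and KO 3 in red. KO 3 is the highest library for each chain, and Col4a3 and Col4a4 in the other 4 KO libraries lie below all 3 WT libraries.

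Col4a5 and Col4a6, the X-linked pair, showed smaller differences. Col4a5 was at 19.9, 16.3 and 16.2 CPM in WT, 13.5 in KO 2, 78.9 in KO 3, and 9.80, 9.56 and 9.20 in KO 4 to KO 6. Apart from KO 3, every KO library was below WT, with a log2 fold change of -0.72 without KO 3 (SE 0.155, adjusted p = 0.0119). Col4a6 was at 7.07, 6.02 and 5.51 CPM in WT, 9.55 in KO 2, 38.2 in KO 3, and 3.84, 5.37 and 3.01 in KO 4 to KO 6. KO 2 was above WT and KO 4 to KO 6 below it. The fall in KO 4 to KO 6 (log2 fold change -0.60, SE 0.208, adjusted p = 0.0350) was called in 2 of 6 fits without 1 library and with the GC correction (-0.81, adjusted p = 0.0109). Without KO 3 the value was -0.18 and not called.

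The balance of type IV chains therefore differed between the libraries. Per kilobase, the level of Col4a3 was 0.278 to 0.333 of that of Col4a1 in WT, 0.106 in KO 2, 0.113 in KO 3 and 0.0391 to 0.0473 in KO 4 to KO 6. The ratio of Col4a4 to Col4a1 was 0.246 to 0.297 in WT, 0.0665 in KO 2, 0.0736 in KO 3 and 0.0353 to 0.0469 in KO 4 to KO 6. In KO 3, where all chains were high, both ratios were close to those of KO 2 and below WT. However, Col4a3 and Col4a4 were above WT in KO 3, at 8.71 and 6.17 times the WT mean against 22.9 times for Col4a1, and below WT in KO 2. The part of lens or other tissue in the ratios of KO 3 was not tested. The summed type IV level was 91.1 to 106 CPM in WT and 91.2 to 97.5 in the KO libraries other than KO 3, so the sum hid the shift between chains.

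KO 3 stood out for the 6 type IV chains and Col6a3. These 7 of 41 genes were over 2-fold above the highest other library in KO 3, where 0.858% of all tested genes were, and the largest such ratio among the other 34 was 1.64. Col6a3, a type VI chain of beaded filaments, was at 0.768, 0.470 and 0.178 CPM in WT, 0.434 in KO 2, 47.9 in KO 3, and 0.492, 0.358 and 0.547 in KO 4 to KO 6. Without KO 3 its log2 fold change was -0.01. Its partner chains were not called in KO 3: Col6a1 was at 22.2 CPM there against 30.2 to 40.3 in WT, and Col6a2 at 5.33 against 4.04 to 5.26. In the fit of KO 3 alone, taken to vary like WT, the same 7 genes were called, all higher, from 2.18 for Col4a5 to 6.70 for Col6a3 on the log2 scale, where 2.96% of all genes were called and 2.41% were higher.

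Lens genes were also high in KO 3. Of its 21 genes, 20 were highest in KO 3. Cryaa, a lens crystallin, was at 17157 CPM in KO 3 and Mip, the lens fibre water channel, at 1699. Crygf, Cryge and other crystallins were at 0 in some of KO 4 to KO 6. Among partners of collagen in basement membranes, Nid1 was at 205.6 CPM in KO 3 against at most 5.51 elsewhere, and Hspg2, the gene for perlecan, at 105.8 against at most 10.05. Some markers of other tissue were high in KO 3 as well. The sum of 3 choroid and sclera fibroblast genes was 91.3 CPM against 17.98 to 36.1 elsewhere, through Ogn (59.9) and Pdgfra (30.95), while Dcn, at 0.475, was below every WT library. Of 8 pericyte and smooth muscle genes 3 were highest in KO 3, among them Acta2 at 33.6 CPM against at most 4.77, while Myh11, Tagln, Cspg4 and Kcnj8 were within the WT range. The part of lens or other tissue in the type IV and Col6a3 levels of KO 3 was not tested. Outside KO 3, the lens sum was lowest in KO 4 to KO 6, at 4.42 to 14.8 CPM, where Col4a3 was also lowest, at 2.20 to 2.69 CPM. WT 1, WT 2 and WT 3 had lens sums of 796, 1787 and 33.0 CPM, with Col4a3 at 11.5, 9.78 and 11.0 CPM. KO 2 had a lens sum of 237 CPM with Col4a3 at 4.34. The part of lens transcripts in these levels was not tested either.

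**Figure D4:**
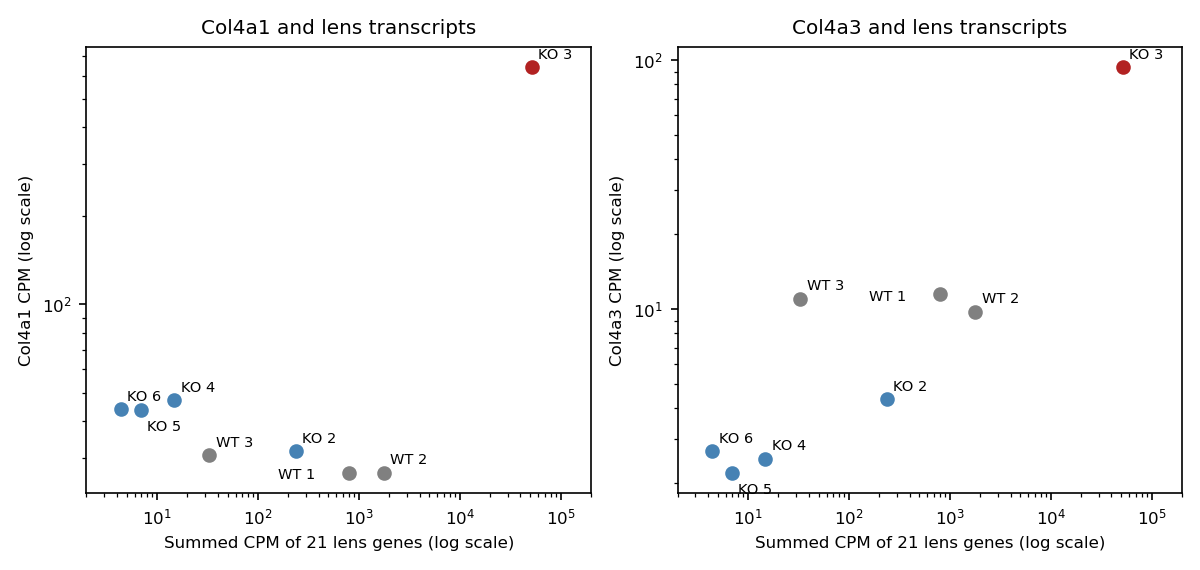
Level of Col4a1 and Col4a3 in each library against the summed level of 21 lens genes, both in CPM on log axes, with 1 labelled point per library. KO 3 is at the upper right in each panel, and KO 4 to KO 6 have the lowest lens sums and the lowest Col4a3.

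No beaded filament gene was called over all libraries, without KO 3, in KO 2 and KO 3, or in KO 4 to KO 6. Col6a1, a chain of type VI collagen around cells and vessels, was lowest in KO 2 at 14.5 CPM, with 32.2 to 35.1 CPM in KO 4 to KO 6 against 30.2 to 40.3 in WT. Col7a1, the anchoring fibril collagen, followed the same order: 14.2 to 22.7 CPM in WT, 8.03 in KO 2, 12.1 in KO 3 and 15.7 to 18.1 in KO 4 to KO 6. In the fit of KO 2 alone both were called, at -1.24 (adjusted p = 0.00225) and -1.19 (adjusted p = 0.0116), and in KO 4 to KO 6 with the GC correction at -0.34 and -0.49. The short-chain network genes Col8a1 and Col8a2, which code for collagens of Descemet's membrane and vessels, were not called in the comparisons without GC correction, at 6.39 to 7.40 and 3.01 to 5.43 CPM in WT and 6.99 to 9.25 and 4.38 to 7.84 in KO. Col8a1 was called higher in KO 4 to KO 6 with that correction, at 0.37 (adjusted p = 0.0468).

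The FACIT class, collagens that sit on the surface of fibrils, had 9 genes tested. Col9a1, Col9a2 and Col9a3 form type IX collagen. Col9a1 (ENSMUSG00000026147, chr1:24177610-24252684, plus strand) was at 91.9, 79.0 and 88.1 CPM in WT, 74.4 in KO 2, 74.8 in KO 3, and 32.2, 39.2 and 30.9 in KO 4 to KO 6. KO 2 and KO 3 lay just below the lowest WT library and KO 4 to KO 6 at less than 0.5 of it. The log2 fold change was -0.78 over all libraries (SE 0.290, adjusted p = 0.115), -0.96 without KO 3 (SE 0.266, adjusted p = 0.0323), and -1.33 in KO 4 to KO 6 (SE 0.0934, adjusted p = 1.04e-06). In KO 2 and KO 3 it was -0.21 (SE 0.0931, adjusted p = 0.268). Col9a2 and Col9a3 were also lower in KO 4 to KO 6, at 7.52 to 13.1 CPM against 15.0 to 19.6 in WT (log2 fold change -0.74, adjusted p = 0.00578) and at 11.1 to 15.4 against 16.1 to 21.3 (-0.54, adjusted p = 0.00657). With the GC correction these falls were larger, at -1.14 and -0.90. Of the exon bases of Col9a3, 6.07% lie antisense to Tcfl5, and counting by strand is not stated.

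Col20a1, a FACIT collagen of poorly known function, was below WT in every KO library. It was at 21.9, 18.8 and 22.8 CPM in WT and at 8.90, 14.1, 12.5, 17.2 and 17.3 CPM in KO 2 to KO 6, with KO 2 lowest. The log2 fold change was -0.60 over all libraries (SE 0.197, adjusted p = 0.0831) and -0.42 in KO 4 to KO 6 (SE 0.127, adjusted p = 0.0166), where it was lost in 1 of 6 fits without 1 library and was -0.73 with the GC correction.

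Of the transmembrane collagens, Col23a1 (ENSMUSG00000063564, chr11:51289920-51583918, plus strand) was among the most abundant. It was at 99.8, 84.9 and 89.9 CPM in WT, 130.3 in KO 2, 93.0 in KO 3, and 83.6, 96.0 and 79.3 in KO 4 to KO 6. Only KO 2 was above the WT range, and the log2 fold change over all libraries was 0.08 (SE 0.149, adjusted p = 0.785). With the GC correction it was -0.08 over all libraries and -0.34 in KO 4 to KO 6 (adjusted p = 0.00602), so its direction depended on the scaling. Col17a1, a hemidesmosome collagen, was at 4.71, 2.68 and 4.22 CPM in WT and at 8.77, 8.32, 5.47, 6.70 and 4.92 CPM in KO 2 to KO 6. Every KO library was above every WT library, with a log2 fold change of 0.82 (SE 0.252, adjusted p = 0.0700). The value in KO 4 to KO 6 was 0.57 (adjusted p = 0.0492), called in 1 of 6 fits without 1 library and at 0.25 (adjusted p = 0.409) after the GC correction.

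Col18a1 (ENSMUSG00000001435, chr10:77052178-77166548, minus strand), whose product releases endostatin and lies in basement membranes, was at 107, 77.8 and 107 CPM in WT. It was at 136 CPM in KO 2, 89.5 in KO 3, and 48.9, 76.9 and 44.5 in KO 4 to KO 6. KO 2 was the highest library and KO 4 to KO 6 were all below WT, KO 5 by a small margin. The log2 fold change was -0.30 over all libraries (SE 0.313, adjusted p = 0.570), 0.21 in KO 2 and KO 3 (adjusted p = 0.581) and -0.77 in KO 4 to KO 6 (SE 0.176, adjusted p = 0.00356), or -1.15 with the GC correction. Col15a1, the other multiplexin, was at 1.11 to 1.79 CPM in WT and 0.998 to 2.46 in KO.

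Most markers of the ciliary body and iris were also lower in KO 4 to KO 6. Of 7 such genes other than Col9a1, 5 were below every WT library in all of KO 4 to KO 6 (Wfdc1, Zic1, Otx1, Slc4a5 and Cldn2), where 26.5% of all genes were. Aqp1 was above every WT library there, at 139 to 161 CPM against 95.9 to 111. The list summed to 210 to 231 CPM in WT and 206 to 238 in KO 4 to KO 6, with Aqp1 the largest term. In KO 2, 1 of the 7 was below WT (Cldn2), and in KO 3, 4 were. None of the 7 was at 0 in any library. Optc, the gene for opticin, a proteoglycan of vitreous fibrils, was at 70.2 to 97.0 CPM in WT, 57.7 in KO 2, 65.9 in KO 3 and 5.74 to 23.5 in KO 4 to KO 6. The part of these markers in the lower Col9a1, Col9a2, Col9a3, Col11a1 and Col18a1 of KO 4 to KO 6 was not tested. An endothelial list of 8 genes summed to 153 to 162 CPM in WT and 203 to 304 in KO. Kdr made up most of the sum, at 112 to 118 CPM in WT and 217 to 251 in KO 4 to KO 6. Of the 8 genes, 5 were above every WT library in all of KO 4 to KO 6, against 25.9% of all genes, and Emcn was below, at 0.886 to 1.43 CPM against 1.70 to 2.58. Other lists were higher there too. Above every WT library were 6 of 8 Muller glia, 4 of 8 pericyte and smooth muscle and 2 of 4 astrocyte genes, with 0 below. Of 7 microglia genes 3 were above and 1 below, and of 8 rod genes 4 were above and 2 below. The part of these markers in the higher Col4a1 was not tested.

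**Figure D5:**
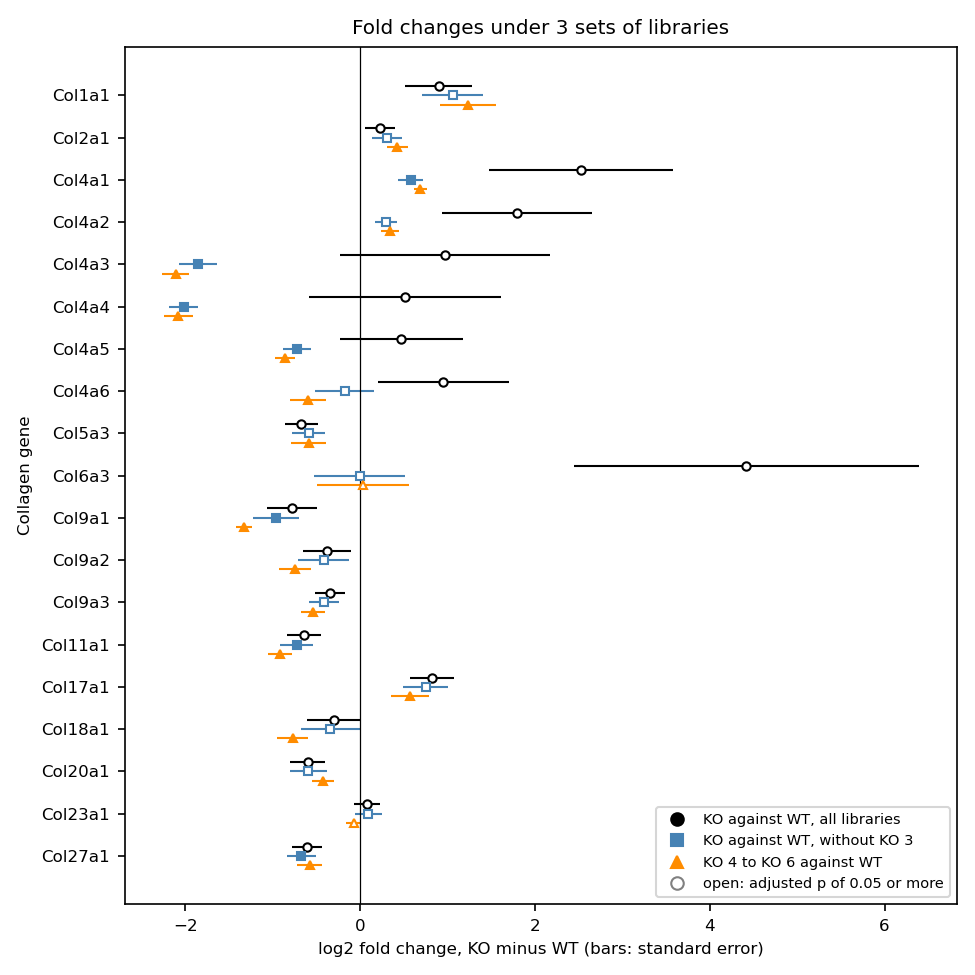
Log2 fold change of the named collagen genes in KO against WT on the x axis, with bars for the standard error, over all libraries, without KO 3 and in KO 4 to KO 6; open symbols have an adjusted p of 0.05 or more. Col4a3, Col4a4, Col4a5 and Col4a6 change sign with the libraries used, while Col5a3, Col11a1 and Col27a1 are below 0 in all 3 comparisons.

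Among genes that make, process, bind or degrade collagen, all those called by edgeR over all libraries were higher in the libraries labelled KO. Of 25 tested genes of collagen biosynthesis and secretion, 1 was called, Plod1, a lysyl hydroxylase, higher in KO. Of 11 genes of procollagen processing and crosslinking, 4 were called, all higher (Loxl4, Pcolce, Bmp1 and Adamts3). Of 12 receptor genes, 2 were called, both higher (Ddr1 and Adgrg6). Of 21 basement membrane partners, 4 were called, all laminin chains and all higher (Lama1, Lama5, Lamb2 and Lamc1). With DESeq2 and limma voom the counts in these 4 lists were 3 and 11, 4 and 6, 2 and 5, and 5 and 8. Of 12 degradation genes and 17 fibril partners, 0 were called by edgeR. There 4 and 5 had an unadjusted p under 0.05, against 5506 of all 20167 tested genes. DESeq2 called 1 and 2 in these lists, and limma voom 5 and 13. Over all genes these tools called 15.5% and 40.9%, and the direction of their calls in the lists was not counted. With edgeR, 4.74% of all genes were called higher and 2.84% lower. The median log2 fold changes of the lists, in the order given here, were 0.14, 0.39, 0.06, 0.40, 0.10 and -0.45, against 0.00 over all genes. Without KO 3 the median was 0.08 for basement membrane partners, 0.21 for receptors and 0.20 for degradation genes.

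Loxl4, a lysyl oxidase that crosslinks collagen, was at 0.877, 1.41 and 1.199 CPM in WT and at 10.5, 8.13, 11.1, 11.1 and 8.61 CPM in KO 2 to KO 6. The groups were far apart, with a log2 fold change of 3.07 (SE 0.213) that was called in each of 8 fits without 1 library. Pcolce, which enhances cleavage of procollagen, was at 8.61, 8.79 and 8.84 CPM in WT and, from KO 2 to KO 6 in order, at 15.1, 17.7, 43.2, 33.5 and 35.4 CPM. Its log2 fold change was 1.73 (SE 0.330, adjusted p = 0.0180). Ddr1, a collagen receptor kinase, was at 83.2 to 87.8 CPM in WT and 112 to 181 in KO, a log2 fold change of 0.83 (SE 0.147). Lamb2, a laminin chain of the retinal and synaptic basement membranes, was at 13.1 to 16.2 CPM in WT and 21.5 to 26.0 in KO, a log2 fold change of 0.69 (SE 0.115). The calls of Pcolce, Ddr1 and Lamb2 were lost without WT 1, WT 2 or WT 3, with adjusted p up to 0.102, 0.0906 and 0.0661. Those of Plod1 (0.76), Bmp1 (0.61), Adamts3 (0.41), Lama1 (0.71), Lama5 (0.61) and Lamc1 (0.50) were lost without any of WT 1 to WT 3 or KO 4 to KO 6, and that of Adgrg6 (0.99) without WT 1, WT 2, KO 4, KO 5 or KO 6. Most calls over all genes were lost in these fits too. They fell from 1529 to 132, 135 and 199 without WT 1, WT 2 and WT 3, and to 365, 388 and 531 without KO 4, KO 5 and KO 6. The GC correction ended the calls of Lama1 (0.58), Lama5 (0.39), Lamc1 (0.39) and Bmp1 (0.39), and the other 7 stayed called.

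Without KO 3, 3 biosynthesis genes were called higher (Plod1, P4hb and Mia3), 4 processing genes, 3 receptors, 1 degradation gene and 6 basement membrane partners, and none of these lists had a lower gene, where 12.2% of all genes were called higher and 7.85% lower. Of 17 fibril partners, 2 were higher (Tnxb and Prelp) and 1 lower (Optc, log2 fold change -1.80). In KO 2 and KO 3, 4 genes of all lists were called, all higher, against 0.624% of all genes called higher: Fkbp10, Loxl4, Pcolce and Lamc1. In KO 4 to KO 6, 22.3% of all genes were called higher and 20.5% lower, and every list had calls both ways. Higher and lower calls were 9 and 3 for biosynthesis, 4 and 1 for processing and 3 and 2 for receptors. They were 4 and 1 for degradation and 7 and 3 for basement membrane partners. The fibril partners were mostly lower, 10 of 17 against 4 higher, with a list median of -0.91. Ogn, at -2.90, and Optc, at -2.63, had the largest falls among them. Ogn also belongs to a list of choroid and sclera fibroblast markers, of which 3 non-collagen genes were in the table. The list summed to 29.0 to 33.99 CPM in WT and 17.98 to 19.9 in KO 4 to KO 6, where Ogn and Dcn were below every WT library and Pdgfra was not. Ogn itself made up most of this fall, at 13.5 to 15.4 CPM in WT and 0.866 to 2.71 in KO 4 to KO 6. The part of these cells in the falls was not tested.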

How the data were processed

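Retinal RNA of 3 WT and 5 KO libraries was compared. The authors deposited estimated counts per gene, made with Trim Galore and Salmon 1.10.2 on GRCm38, per the submitters' processing notes, which also name DESeq2. The values are whole numbers, unnormalized, with at least 16 counts per gene in total; the strand setting is not given in the sources used here. All 8 sample columns were used.

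The counts were given TMM factors and tested in edgeR 4.0.16 (filterByExpr, glmQLFit, glmQLFTest; R 4.3.3), with Benjamini-Hochberg adjustment over all tested genes and a threshold of 0.05. Standard errors were computed as the fold change over the root of F. Alternatives were DESeq2 1.42.0, limma 3.58.1 (voom), robust estimation, other scaling and filters, offsets for GC content or transcript length, fits without each library, and a replicate block. Transcript length, GC content and positions come from GENCODE M21, which held 22121 of the 26824 genes and all 44 collagen genes. No pair of libraries of 1 group agreed within sampling noise (chi-square per degree of freedom 5.85 or more). Floors cover counting error only. On simulated counts for the comparison of all libraries, 131 of 200 genes changed 2-fold were recovered (65.5%), with 6 others called, among 20201 tested.

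The collagen genes, pathway lists and marker lists were chosen with earlier results of these data known, including the split of KO 4 to KO 6 from KO 2 and KO 3. Values in every library were to be given for collagen genes called over all libraries or in KO 2 and KO 3, and for the 5 with the highest mean CPM per kilobase; pathway genes were named where called, up to 6 per list. Only the 5 highest met the first rule. Other collagen genes, and pathway or marker genes outside the rule, were named after their values were seen.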

Additional observations from a re-analysis of the deposited data

Results flagged for a closer look

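The level of each of the 44 collagen genes was examined over the 5 KO libraries for a single library far from the others, as the gap to the nearest library divided by the whole range. For 11 genes this share was above the 95% limit of 0.71 for 5 samples. Chance flags about 1 in 20 groups, or 2.2 of 44 genes, and genes that move together are not independent. In 8 of the 11 the library was KO 3, as the highest: the share was 0.975 for Col4a1, 0.977 for Col4a2, 0.977 for Col4a3, 0.988 for Col4a4, 0.938 for Col4a5, 0.814 for Col4a6, 0.996 for Col6a3 and 0.756 for Col13a1. Col13a1 is a low gene, at 0.808 CPM in KO 3 against 0.391 to 0.492 in the other KO libraries. The other genes were Col6a5, where KO 5 was highest (0.759), Col8a2, where KO 6 was highest (0.834), and Col11a2, where KO 2 was lowest (0.747). Col6a5 was at 0.409 CPM in KO 5 and at or below the floor of 3 counts in the other KO libraries.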

How the results depend on the processing

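Depth limited Col6a5, Col10a1, Col28a1 and other collagen genes near 3 counts. Over all libraries, where 0 collagen genes were called, the count was 3 with GC correction, 5 with DESeq2, 14 with limma voom, 1 with robust estimation, 2 with length correction and 17 in KO 4 to KO 6. Without 1 library it ran from 0 to 7, with 2 without KO 2 and 7 without KO 3. Calls over all genes were 1529 with all libraries, 2781 without KO 2 and 3992 without KO 3. They were only 132 to 531 in the other fits without 1 library. Added after seeing the data, the fit without KO 3 and with GC correction called 12. In KO 2 and KO 3 the count ran from 0 to 11 without 1 library, with 7 without KO 2 and 11 without KO 3. KO 4 to KO 6 with GC correction gave 21, 2 higher and 19 lower. Kcnv2 was at -0.35 without KO 2, -0.38 in KO 4 to KO 6 and -0.36 with limma voom, and was called in these.

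The numbers 2 and 3 occur in both groups. The difference of number 2 minus number 3 in WT correlated with that in KO at -0.20 over 19788 genes. Each group gives a single such difference, so this cannot show whether same-numbered libraries were paired. With the replicate block 0 collagen genes were called (52 of all genes), with 0 and 14 without it, and with the numbers crossed, added after seeing the data, 5 and 527.

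Of 475 values of 19 collagen genes, 38 changed sign, in 11 genes. For Col4a3, Col4a4, Col4a5, Col4a6 and Col6a3 the sign turned without KO 3; for the others, Col4a2 included, the cause was not tested. Without 1 library the log2 fold change ran from -1.86 to 1.26 for Col4a3, -2.02 to 0.80 for Col4a4, -0.72 to 0.68 for Col4a5, -0.18 to 1.2 for Col4a6 and -0.0051 to 4.93 for Col6a3, the lower end without KO 3 each time, and from -0.056 to 0.14 for Col23a1, the lower end without KO 2. In KO 4 to KO 6, with limma voom, and without KO 3 with GC correction, the values were -2.11, -1.85 and -1.92 for Col4a3, -2.08, -1.84 and -2.11 for Col4a4, -0.86, -0.72 and -0.82 for Col4a5, and -0.60, -0.43 and -0.33 for Col4a6. Without KO 3 with GC correction, Col6a3 was at -0.20, Col4a2 at -0.016, Col2a1 at -0.025 and Col23a1 at -0.11. With GC correction alone Col2a1 was at -0.044 and Col23a1 at -0.083. Col2a1 was at -0.091 in KO 2 and KO 3, and Col23a1 at -0.074 in KO 4 to KO 6 and -0.079 with limma voom. In KO 2 and KO 3, with the block, with the same 4 libraries unblocked and with the numbers crossed, Col9a2 was at 0.054, 0.17, 0.19 and 0.18 and Col18a1 at 0.21, 0.27, 0.29 and 0.27. In the last 3, Col9a3 was at 0.0098, 0.0033 and 0.0088.

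Beside the counts by tool given above, called genes of the pathway lists moved from 1 to 2 (GC correction), 12 (KO 4 to KO 6) and 3 (without KO 3) for biosynthesis; from 4 to 2 (KO 2 and KO 3) for processing; from 2 to 0 (KO 2 and KO 3) and 5 (KO 4 to KO 6) for receptors; from 0 to 5 (KO 4 to KO 6) and 1 (without KO 3) for degradation. They moved from 4 to 1 (GC correction), 1 (KO 2 and KO 3) and 10 (KO 4 to KO 6) for basement membrane partners, and from 0 to 14 (KO 4 to KO 6) and 3 (without KO 3) for fibril partners. The counts in KO 4 to KO 6 were of 25 biosynthesis, 12 receptor, 11 degradation, 21 basement membrane and 17 fibril partner genes. Of all genes, 42.8% were called there. The share of all genes was 7.46% with GC correction, 0.891% in KO 2 and KO 3 and 20.0% without KO 3.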

Other observations

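The chains of type I collagen differed in balance between libraries. Per kilobase, Col1a2 was at 20.3, 8.52 and 24.1 times the level of Col1a1 in WT, at 21.3 and 17.7 times in KO 2 and KO 3, and at 3.46, 7.12 and 3.52 times in KO 4 to KO 6. Col1a1 had 13 to 43 counts per library, so each ratio has a wide counting error, and no test was made.

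Across genes, log2 fold change rose with the GC content of the transcript over all tested genes, with a Spearman rho of 0.460 over 18028 genes, while it was -0.02 over the 41 collagen genes. In KO 4 to KO 6 the values were 0.539 and 0.171. The collagen genes had a median GC content of 56.1%, against 49.5% over all tested genes. Genes are not independent replicates, and these are descriptions of the same libraries.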
